A study of Mus musculus with 27 samples.

Results

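The genes described here code for the enzymes of arsenic reduction and methylation: As3mt, N6amt1, Gsto1, Gsto2, Pnp and Pnp2. They were found by matching the Ensembl identifiers of the count table to these symbols, and 5 of the 6 symbols had a row among 52550 genes. The identifier of Pnp matched no row, so no values are given under the name Pnp. RNA was sequenced from the ileum, cecum and colon of male C57BL/6 mice, which were 6 weeks old before 7 days of acclimatization and then received control or arsenic feed for 60 days. Control feed was the standard diet. Arsenic feed was the same diet with total arsenic at 30 µg per g, given as arsenite (72.7%), dimethylarsinate, called DMA (19.0%), arsenate (7.3%) and monomethylarsonate, called MMA (1.0%), all as sodium salts. The arsenic feed therefore already held MMA and DMA, the methylated forms that these enzymes make. There were 4 control and 5 arsenic libraries of the ileum, 4 and 5 of the cecum, and 5 and 4 of the colon, 27 in all. Each library is numbered in the labels, which do not state that numbers are separate mice, so the p-values measure the spread between libraries. Each held 15717600 to 18208518 counts.

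Arsenate is reduced to arsenite inside cells, with thiols such as glutathione or thioredoxin as the source of electrons. As3mt moves methyl groups from S-adenosylmethionine onto trivalent arsenic and gives MMA and then DMA, the forms excreted in urine. The omega-class glutathione transferases Gsto1 and Gsto2 can reduce pentavalent methylated arsenic. Purine nucleoside phosphorylase, the product of Pnp and its near copy Pnp2, splits nucleosides with phosphate, and with arsenate in place of phosphate it forms products that thiols reduce readily. N6amt1 is a methyltransferase of proteins that acts as a pair with Trmt112, and it has also been described as able to methylate monomethylarsonous acid. The intestine meets food arsenic before the liver does, and the liver is the organ best known for arsenic methylation.

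The Pnp locus shows why a row for Pnp2 has to be read with care. Over 867 aligned coding bases, Pnp and Pnp2 of the mouse reference (GENCODE release M21, GRCm38) were 98.2% identical, with 16 differences. The 120 coding bases with the most differences, 8, are shown here 5′ to 3′, counted from the first base of the start codon (747 to 866 in Pnp, 792 to 911 in Pnp2), with the differing bases in capitals.
Pnp: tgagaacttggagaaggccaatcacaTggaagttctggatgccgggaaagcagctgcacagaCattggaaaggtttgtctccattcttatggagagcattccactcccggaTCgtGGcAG
Pnp2: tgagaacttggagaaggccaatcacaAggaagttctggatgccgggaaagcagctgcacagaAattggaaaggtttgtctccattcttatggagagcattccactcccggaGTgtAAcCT
The longest run of identical bases between transcripts of the genes was 292, longer than the reads of 150 bases. Of the 1223 windows of 150 bases in the longest Pnp2 transcript, 11.7% also occurred letter for letter in a transcript of Pnp or of the gene model Gm49342. A read from there, taken alone, has no single origin. The reads were paired, and a mate outside such a window can still place the pair. A row of the table carries the identifier of Gm49342 (ENSMUSG00000021871), a model of 6 exons on chromosome 14 whose exon bases lie to 95.7% within exons of Pnp. Which model the submitters' annotation had under this identifier is not given in the sources used here, and Gm38316 on the opposite strand shares 27.2% of its exon bases. Gm49342 was not counted as a listed enzyme, although its reads may be those of Pnp, and it was chosen after its values were seen. Its values are given below beside those of Pnp2 (ENSMUSG00000068417, chromosome 14). Gsto1 (ENSMUSG00000025068) and Gsto2 (ENSMUSG00000025069), neighbours on chromosome 19, were 69.9% identical in coding sequence with no shared run over 24 bases, too short for a read to fit both. As3mt (ENSMUSG00000003559) also lies on chromosome 19 and N6amt1 (ENSMUSG00000044442) on chromosome 16. All are on the plus strand.

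The 250 bases before the start sites were searched for motifs of factors that answer to metals, oxidants or the time of day, since the diet comparison below turns on these genes. RefSeq sequences (GRCm38.p6) matched As3mt, Gsto1, Gsto2 with 2 start sites, Pnp and N6amt1, that is 5 of the 6 symbols. The motifs, searched on both strands, were cores of the antioxidant response element (TGACNNNGC), which binds Nrf2, of the metal response element (TGCACNC and TGCGCNC), which binds Mtf1, and of the xenobiotic response element (TNGCGTG), with the E-box CACGTG and the Hnf4 direct repeat CAAAGTCCA. The E-box and the xenobiotic core can overlap. Shown with a match in capitals are N6amt1, whose level was higher on arsenic feed, and As3mt and Gsto1, which were higher in every ileum library on arsenic feed than in any control.
N6amt1, chr16:87353935-87354184, plus strand: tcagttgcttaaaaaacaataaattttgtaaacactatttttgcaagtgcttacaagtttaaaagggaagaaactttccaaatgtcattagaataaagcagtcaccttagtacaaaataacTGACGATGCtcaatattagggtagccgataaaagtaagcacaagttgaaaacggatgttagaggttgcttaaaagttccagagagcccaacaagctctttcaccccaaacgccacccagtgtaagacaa
As3mt, chr19:46707208-46707457, plus strand: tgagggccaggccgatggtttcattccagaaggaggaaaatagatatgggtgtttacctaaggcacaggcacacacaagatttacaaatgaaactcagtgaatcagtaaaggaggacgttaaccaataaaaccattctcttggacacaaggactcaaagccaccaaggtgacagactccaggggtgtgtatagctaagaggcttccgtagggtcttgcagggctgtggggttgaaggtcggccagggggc
Gsto1, chr19:47854723-47854972, plus strand: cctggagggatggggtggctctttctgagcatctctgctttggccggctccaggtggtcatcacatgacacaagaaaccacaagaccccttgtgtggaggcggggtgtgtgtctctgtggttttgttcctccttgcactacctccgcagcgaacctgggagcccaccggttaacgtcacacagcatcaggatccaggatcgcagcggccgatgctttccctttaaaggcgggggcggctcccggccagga
N6amt1 held an antioxidant core, TGACGATGC, from 129 to 121 bases before its start, and 10.16% of 32851 such windows of all genes hold this core. The windows of As3mt, Gsto1, Pnp and the first start of Gsto2 held none of the letters searched. The other start of Gsto2 held a metal response core on the minus strand (GAGCGCA as read on the plus strand, 61 to 55 bases before the start), and 12.51% of windows hold that core. The other motifs occurred in 10.4% (TGCACNC), 4.1% (xenobiotic), 6.02% (E-box) and 0.38% (Hnf4) of windows. A match describes letters, not a bound site.

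Compared per length, as CPM (counts scaled to a common library size) per kb of exon, the genes of the route differed widely in level. In control ileum Gsto1 stood at 127 ± 3.77 (SD, n = 4), Pnp2 at 106 ± 9.44, As3mt at 15.6 ± 1.18, N6amt1 at 1.39 ± 0.111 and Gsto2 at 0.158 ± 0.0557. The libraries of neighbours in that order did not overlap. In control colon the order of Pnp2 (14.1 ± 2.25, n = 5) and As3mt (8.27 ± 0.309) was kept, but Pnp2 stood far below Gsto1 (162 ± 69.9). Gsto2 was the lowest in every region and rested on 3 to 28 reads a library, so small changes in it were not detectable at this depth. Since these are whole-tissue samples, fewer cells of a type and less RNA per cell cannot be told apart.

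**Figure D1:**
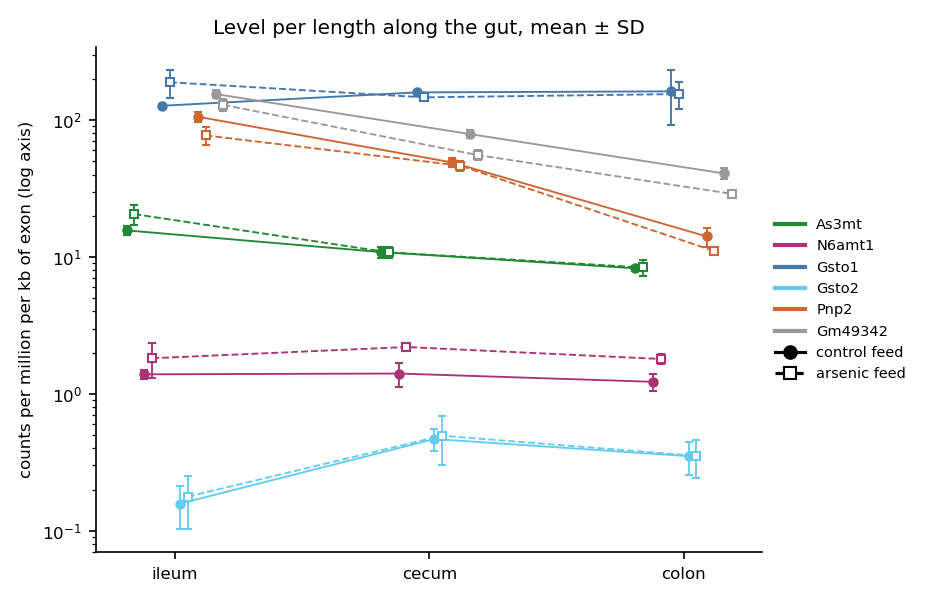
Mean CPM per kb of exon (log axis, bars are SD, 4 or 5 libraries a point) of each enzyme gene and of Gm49342 in ileum, cecum and colon on control feed (filled, solid) and arsenic feed (open, dashed). As3mt, Pnp2 and Gm49342 fall from ileum to colon on both diets, and Gsto2 is lowest in the ileum.

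The tissue labels were checked against 6 ileum and 5 large-intestine markers. Summed ileum markers stood at 9843 to 23100 CPM in the ileum and at 224.1 to 2124 CPM elsewhere, and summed large-intestine markers at 0 to 25.98 CPM in the ileum and 2975 to 38280 CPM elsewhere. Summed pancreatic acinar markers (6 genes) reached 706 CPM in control and 147.8 CPM in arsenic colon, against at most 28.11 CPM in other groups. Summed hepatocyte markers (6 genes) reached 95.25 CPM in arsenic colon, against at most 46.37 CPM in other groups. The part of such tissue in the results was not tested. Libraries 14 and 15 of the ileum on arsenic stood apart, with Fabp6, the bile acid binding protein of the ileum, at 6.131 and 1.332 CPM against 218.6 to 4272 CPM in the other 7 ileum libraries. The ileum diet effects of As3mt, Gsto1, Pnp2 and N6amt1 are therefore given with and without these libraries. Most other ileum results include them. A score of circadian genes (activators minus repressors and outputs, 11 genes, log2 CPM) was lower on arsenic feed, at -1.77 to -0.65 against -0.70 to 0.25 in the ileum, -0.83 to -0.37 against 0.24 to 1.04 in the cecum, and -1.57 to -0.54 against -0.33 to 0.43 in the colon. In the cecum and colon the scores of the diets did not overlap, so diet and clock score cannot be told apart there.

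Along the gut of control mice, As3mt was highest in the ileum and lowest in the colon. The control libraries held 54.67, 47.53, 46.66 and 52.01 CPM in the ileum, 33.05, 32.02, 35.19 and 39.27 CPM in the cecum, and 28.27, 25.92, 25.88, 26.58 and 26.14 CPM in the colon. No control library of one region reached those of the next. By edgeR's quasi-likelihood test with Benjamini-Hochberg adjustment over all genes, As3mt was lower in the cecum than in the ileum, at a log2 fold change of -0.53 ± 0.09 (SE, adjusted p = 0.000116). It was lower again in the colon than in the cecum, at -0.39 ± 0.08 (adjusted p = 0.00151 in the same test). On arsenic feed the cecum stood below the ileum, at -0.94 ± 0.12 (edgeR adjusted p = 7.44e-06), but the colon and cecum overlapped (23.35 to 31.53 against 31.24 to 38.85 CPM) at -0.28 ± 0.12 (edgeR adjusted p = 0.084). That last difference passed the threshold in 5 of 14 fits with 1 library left out and in 6 of 9 other settings. TMM scaling moved with it: the median over all genes tested was 0.02 in the fit of all arsenic libraries and -0.11 without cecum arsenic 11 or 13, where As3mt stood at -0.44 in each.

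Pnp2 also fell along the gut, on both diets. Control libraries held 180.5, 181.0, 155.1 and 154.5 CPM in the ileum, 75.4, 71.13, 79.75 and 84.88 CPM in the cecum and 28.11, 21.73, 18.29, 22.64 and 21.36 CPM in the colon. The regions did not overlap. On control feed the log2 fold change was -1.12 ± 0.12 from ileum to cecum (edgeR adjusted p = 1.85e-06) and -1.79 ± 0.11 from cecum to colon (edgeR adjusted p = 1.21e-07). On arsenic feed these were -0.74 ± 0.10 and -1.99 ± 0.11 (edgeR adjusted p = 1.67e-05 and 2.00e-08). Gm49342 fell as well, at -0.98 ± 0.09 and -0.95 ± 0.08 on control feed (edgeR adjusted p = 4.60e-07 and 1.77e-06). Its control libraries held 109.6 to 125.3, 55.41 to 65.22 and 27.41 to 34.51 CPM in ileum, cecum and colon.

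Gsto2 had its lowest level in the ileum. Control libraries held 0.5653, 0.2836, 0.3123 and 0.322 CPM there against 0.902 to 1.332 CPM in the cecum and 0.5587 to 1.165 CPM in the colon. Gsto2 was too low to be tested within the ileum alone, and it entered the tests between regions through its reads in cecum and colon. The cecum was above the ileum by 1.54 ± 0.32 on control feed and by 1.44 ± 0.37 on arsenic feed (edgeR adjusted p = 0.00105 and 0.00406). Cecum and colon did not differ past the threshold, with -0.40 ± 0.28 on control and -0.40 ± 0.36 on arsenic feed (edgeR adjusted p = 0.247 and 0.407). The colon was above the ileum by 1.13 ± 0.31 on control and 1.04 ± 0.39 on arsenic feed (edgeR adjusted p = 0.0073 and 0.0319), but without ileum arsenic 14 and 15 the latter was 0.70 (0.167). That call on arsenic feed was also lost with no filter on low counts (0.96, edgeR adjusted p = 0.0736) and in 6 of 14 fits with 1 library left out: ileum 14 or 15, cecum 13 or 15, or colon 12 or 15 (0.80 to 0.96, edgeR adjusted p from 0.0543 to 0.0929). Gsto1 and N6amt1 showed no called difference between regions on either diet. For Gsto1 the 6 log2 fold changes ran from -0.38 to 0.35 (edgeR adjusted p from 0.057 to 0.921), and for N6amt1 the adjusted p ran from 0.185 to 0.964 in the same test. From ileum to cecum on arsenic feed, Gsto1 passed with upper-quartile scaling (-0.37, edgeR adjusted p = 0.0401), DESeq2 (-0.38, 0.0437) and without ileum 11 or 13 or colon 11 or 12 (-0.46 to -0.37, edgeR adjusted p from 0.0203 to 0.0482), and N6amt1 passed without ileum 11 (0.41, 0.0212). Counted over the 5 genes with a row, 3 were called from ileum to cecum on control feed, where 54.9% of all genes tested were called, 2 from cecum to colon (47.2% of all genes) and 3 from ileum to colon (52.2%). On arsenic feed the counts were 3 (52.2% of all genes), 1 (38.6%) and 3 (59.1%). These counts, which include Gsto2 except from cecum to colon, are near the share of all genes.

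On arsenic feed, N6amt1 was higher and Pnp2 was lower when the diet effect was averaged over the 3 regions. The averaged test was limma's voom with libraries of the same number and diet as a random effect. N6amt1 was 1.45 times as high, a log2 fold change of 0.54 ± 0.10 (SE, n = 13 control and 14 arsenic libraries, limma adjusted p = 0.000706). Pnp2 stood at -0.29 ± 0.07 (limma adjusted p = 0.0039). Both calls held in each of 27 fits with 1 library left out and in each of 10 other settings, and both were lost with the clock score as a covariate, a setting chosen after seeing the data. N6amt1 then stood at 0.47 ± 0.19 (limma adjusted p = 0.182) and Pnp2 at -0.35 ± 0.12 (0.142). In that setting 375 of all 17763 genes were called, against 2896 without the score. As3mt (0.13 ± 0.07, limma adjusted p = 0.205), Gsto1 (0.15 ± 0.12, 0.462) and Gsto2 (0.02 ± 0.22, 0.961) did not pass. The share of all 17763 genes called in this test was 16.3%, against 2 of the 5 genes here. Gm49342 was lower, at -0.42 ± 0.05 (limma adjusted p = 3.38e-06), and passed with the clock score as well (-0.44 ± 0.09, 0.0161).

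**Figure D2:**
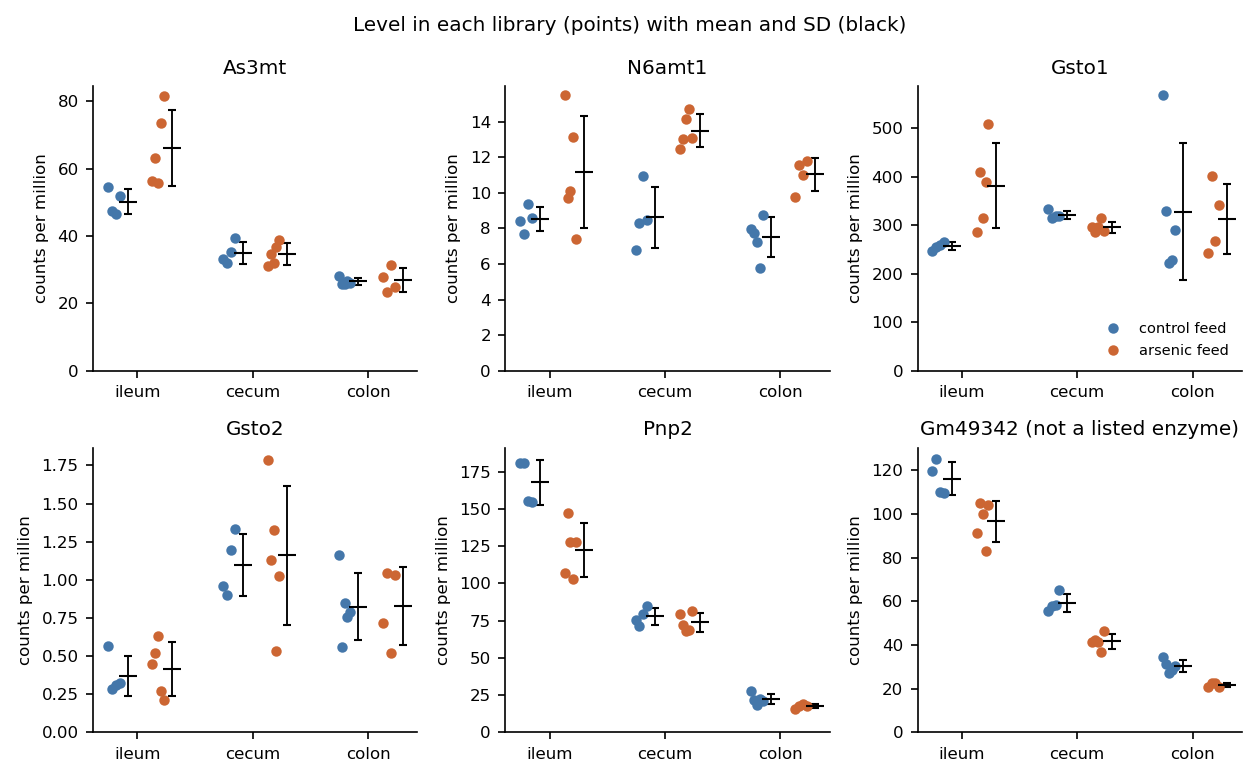
CPM of each library (points, blue control feed, orange arsenic feed) with group mean and SD (black) for the 5 enzyme genes with a row and for Gm49342, each panel starting at 0. N6amt1 on arsenic feed lies above the control range in cecum and colon, and Pnp2 on arsenic feed lies below the control range in the ileum.

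N6amt1, the protein methyltransferase, showed its clearest difference in the cecum. Cecum control libraries held 6.79, 8.311, 10.93 and 8.501 CPM, and arsenic libraries 12.46, 13.03, 14.17, 14.73 and 13.06 CPM. Every arsenic library was above every control. The log2 fold change was 0.68 ± 0.13 (edgeR adjusted p = 0.00181), and it passed in each of 9 fits with 1 library left out (0.58 to 0.81). In the colon, controls held 7.993, 7.766, 7.249, 5.781 and 8.764 CPM and arsenic libraries 9.755, 11.57, 10.98 and 11.81 CPM. The groups did not overlap there either, at 0.56 ± 0.13, but the edgeR adjusted p was 0.0902, and DESeq2 gave 0.0113. In the ileum, controls held 8.424, 7.713, 9.37 and 8.587 CPM and arsenic libraries 15.51, 9.682, 10.08, 13.12 and 7.429 CPM. The ileum groups overlapped through arsenic library 15, and the value of 0.36 ± 0.21 missed the threshold (edgeR adjusted p = 0.315, and 0.186 at 0.46 ± 0.19 without libraries 14 and 15). The difference of the effect between regions was not called for N6amt1 (edgeR adjusted p = 0.768).

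The cecum call of N6amt1 went with other differences between the cecum groups. Its value was 0.12 ± 0.31 with the clock score as a covariate (edgeR adjusted p = 0.91), a setting in which 25 of all 15590 genes passed. The mean log2 CPM of 10 enterocyte markers was 10.62 to 10.72 in control and 10.28 to 10.58 in arsenic cecum. Of these markers 4 were called lower and none higher, where 13.9% of all genes were called lower and 11.3% higher. With that score as a covariate N6amt1 stood at 0.73 ± 0.22 (edgeR adjusted p = 0.0862). The mean log2 CPM of 6 goblet cell markers (8.89 to 9.05 in control, 8.54 to 8.70 in arsenic cecum) and of 7 T cell markers (1.22 to 1.66 against 1.78 to 2.54) did not overlap between diets either, and their part in the result was not tested. Of 8 smooth muscle markers 3 were called higher and none lower, beside the same shares of all genes. With their score as a covariate N6amt1 passed (0.75 ± 0.18, edgeR adjusted p = 0.014). Trmt112, the partner of N6amt1, held 5.67 to 7.815 CPM in control and 5.403 to 8.752 CPM in arsenic cecum. Neither Trmt112 nor Etf1, the release factor that the pair methylates, was called in any region.

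Pnp2 was lower in the ileum on arsenic feed. Controls held 180.5, 181.0, 155.1 and 154.5 CPM and arsenic libraries 106.8, 147.5, 128.0, 102.7 and 127.5 CPM, with no overlap. The log2 fold change was -0.49 ± 0.12 (edgeR adjusted p = 0.0379). The call was lost in 7 of 9 fits with 1 library left out, among them those without control 1 (0.127), control 2 (0.13), control 3 (0.101) and arsenic 14 (0.0763), although the value stayed between -0.54 and -0.42. Without arsenic libraries 14 and 15 together it was -0.40 ± 0.13 (edgeR adjusted p = 0.108), and with the counts of Pnp2 and Gm49342 summed -0.41 ± 0.12 (0.0567). Paneth cell markers (6 genes, summed) stood at 8007 to 14200 CPM in control and 3287 to 9837 CPM in arsenic ileum, and their part in the result was not tested. In the cecum Pnp2 overlapped between diets (71.13 to 84.88 against 67.74 to 81.53 CPM) at -0.04 ± 0.07 (edgeR adjusted p = 0.749). In the colon it held 18.29 to 28.11 CPM in controls and 15.8 to 18.83 CPM on arsenic, at -0.35 ± 0.12 (edgeR adjusted p = 0.221). The difference between regions was not called (edgeR adjusted p = 0.235).

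Gm49342, the row that lies over Pnp, was lower on arsenic feed in the cecum and colon. Cecum controls held 55.41, 58.05, 58.32 and 65.22 CPM and arsenic libraries 41.46, 42.35, 41.3, 37.0 and 46.24 CPM, at -0.47 ± 0.08 (edgeR adjusted p = 0.000559). Colon controls held 34.51, 31.51, 27.41, 28.8 and 30.44 CPM and arsenic libraries 20.73, 22.57, 22.47 and 20.92 CPM, at -0.49 ± 0.09 (edgeR adjusted p = 0.0437). Neither region showed overlap between diets. The colon call was lost in 8 of 9 fits with 1 library left out (edgeR adjusted p up to 0.167), with no filter on low counts (0.0577), and with the clock (0.695), enterocyte (0.0548) or smooth muscle score (0.129) as a covariate. The cecum call was lost with the clock (-0.64, edgeR adjusted p = 0.214) and enterocyte scores (-0.35, 0.131). The ileum libraries did not overlap either (109.6 to 125.3 against 83.14 to 105.3 CPM), at -0.30 ± 0.10 (edgeR adjusted p = 0.0841). Whether Gm49342 and Pnp2 differed from each other in their response was not tested.

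As3mt, the methyltransferase itself, had higher values in the ileum on arsenic feed but did not pass within any region or in the averaged test. Ileum controls held 54.67, 47.53, 46.66 and 52.01 CPM and arsenic libraries 56.38, 63.1, 55.64, 73.57 and 81.58 CPM. The groups did not overlap, and the highest levels were those of libraries 14 and 15. The log2 fold change was 0.35 ± 0.12 (edgeR adjusted p = 0.102), or 0.21 ± 0.10 without libraries 14 and 15 (0.212) and -0.01 ± 0.15 with the clock score as a covariate (0.987). With all 27 libraries in 1 fit, an alternative setting, it passed in the ileum (0.39 ± 0.11, edgeR adjusted p = 0.0114). In the cecum As3mt overlapped between diets, at 32.02 to 39.27 against 31.24 to 38.85 CPM (0.03 ± 0.08, edgeR adjusted p = 0.821). In the colon it also overlapped, at 25.88 to 28.27 against 23.35 to 31.53 CPM (0.02 ± 0.09, edgeR adjusted p = 0.949). The difference between regions was not called (edgeR adjusted p = 0.136).

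Gsto1, the reductase of methylated arsenic, also had its higher values in the ileum. Controls held 247.7, 255.8, 260.4 and 265.9 CPM and arsenic libraries 286.1, 410.6, 315.4, 388.9 and 509.6 CPM. Every arsenic library was above every control, and the SD was 87.7 CPM on arsenic against 7.70 CPM in controls. The log2 fold change of 0.53 ± 0.16 missed the threshold (edgeR adjusted p = 0.0674), with DESeq2 giving 0.0182 and the fit without arsenic 11 giving 0.0319. Without libraries 14 and 15 it was 0.39 ± 0.13 (edgeR adjusted p = 0.126), and with the clock score as a covariate 0.13 ± 0.22 (0.805). In the cecum the groups did not overlap in the opposite direction, at 334.5, 315.5, 320.1 and 318.7 CPM in controls and 296.1, 286.5, 297.5, 314.6 and 287.8 CPM on arsenic. That difference was small, at -0.08 ± 0.05 (edgeR adjusted p = 0.275). The difference between regions was not called (edgeR adjusted p = 0.199).

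Gsto1 varied most in the colon, within each diet. Controls held 568.2, 329.6, 223.3, 228.4 and 290.1 CPM and arsenic libraries 242.8, 400.9, 268.8 and 341.2 CPM, which overlapped (-0.06 ± 0.28, edgeR adjusted p = 0.961). Without control 1, the highest library, the value was 0.24. Across the 9 colon libraries Gsto1 rose with the summed level of 5 large-intestine markers (Car1, Aqp8, Hoxb13, Hoxd10 and Hoxd11), a relation chosen after its values were seen. Pearson's r was 0.92 (exact permutation p = 4.41e-05, two-sided, 0.00022 after Benjamini-Hochberg adjustment over the 5 genes compared) and Spearman's rho 0.97 (exact permutation p = 0.000165, adjusted 0.000827). These p-values do not account for the choice of region and marker sum, so they do not measure how often chance gives such a relation. Without the 2 libraries farthest from the median marker level r was 0.91, and it was 0.91 within the 5 control and 0.96 within the 4 arsenic libraries. The sum follows Car1, a carbonic anhydrase of the large intestine, which ran from 1190 to 13040 CPM. Aqp8 and Hoxb13 tended to run against Gsto1 instead. Control 1, highest in Gsto1, held the most Car1 (13040 CPM) with Aqp8 at 68.02 CPM and no Hoxb13 read. Control 3, lowest in Gsto1, held 1223 CPM of Car1, 1649 CPM of Aqp8 and 238.9 CPM of Hoxb13. The relation with the sum thus rests on Car1, and single markers were not tested. The other enzyme genes gave r of -0.16 (As3mt), 0.36 (Gsto2), 0.39 (Pnp2) and 0.47 (N6amt1), with adjusted exact permutation p from 0.423 to 0.687. Within the control and the arsenic libraries r was 0.75 and 0.94 for N6amt1, 0.69 and 0.62 for Pnp2, 0.23 and 0.63 for Gsto2, and 0.54 and -0.67 for As3mt, and Pnp2 stood at 0.74 without the 2 libraries farthest from the median. Whether the relation of Gsto1 differed from these was not tested.

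**Figure D3:**
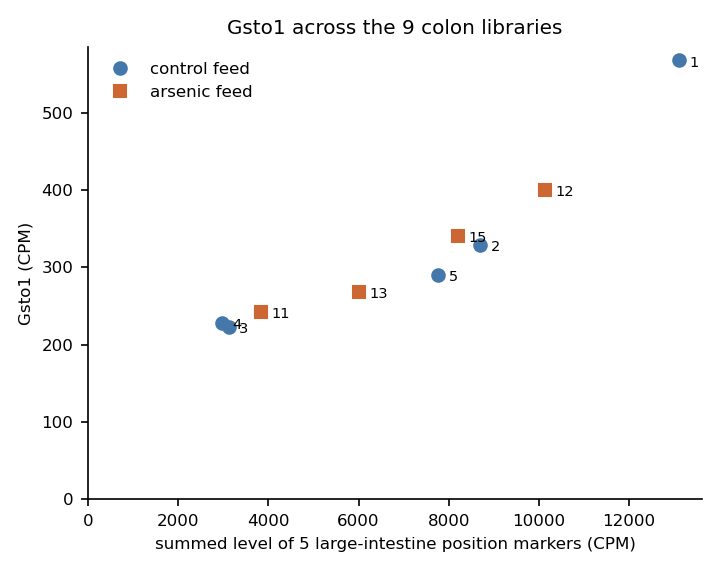
Gsto1 (CPM, y axis) against the summed CPM of 5 large-intestine position markers (x axis) in the 9 colon libraries, numbered as in the labels. The sum follows Car1, while Aqp8 and Hoxb13 tend to run the other way. Gsto1 climbs from 223.3 and 228.4 CPM in controls 3 and 4 to 568.2 CPM in control 1, and libraries of both diets lie along the same course.

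Gsto2 was not called between diets where it could be tested. It was too low for the test in the ileum (0.2836 to 0.5653 CPM in controls, 0.2102 to 0.6334 CPM on arsenic). In the cecum it stood at 0.902 to 1.332 against 0.5346 to 1.789 CPM (0.12 ± 0.33, edgeR adjusted p = 0.82) and in the colon at 0.5587 to 1.165 against 0.5202 to 1.042 CPM (0.01 ± 0.30, 0.992). Its SEs were the largest among the enzyme genes in both regions. Counting calls by region, 1 of the 4 enzyme genes tested was called in the ileum, where 7.3% of all 16305 genes were, 1 of 5 in the cecum, where 25.2% of 15590 were, and none of 5 in the colon, where 0.649% of 16492 were (edgeR). At an unadjusted p under 0.05 there were 2 in the colon, N6amt1 and Pnp2, beside 2405 of all 16492 genes (edgeR). In the cecum 1768 genes of the whole table were called higher and 2165 lower, and 2448 and 1627 with upper-quartile scaling. In the ileum As3mt, Gsto1 and Pnp2 (3 of 4) did not overlap between diets, against 13.4% of all genes, in the cecum Gsto1 and N6amt1 (2 of 5, against 22.2%), and in the colon N6amt1 (1 of 5, against 7.83%). None of the 5 was called for a difference of the diet effect between regions, where 7.62% of 17763 genes were (edgeR). In that test 2, As3mt and Gsto1, had an unadjusted p under 0.05, as did 3948 of the 17763 genes.

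The 7 sets of genes around these enzymes place them in the route and were listed by textbook role. Mt1, the metallothionein that binds arsenite and other metals through its thiols, rose in the ileum and cecum. It held 34.77 to 43.27 CPM in control and 102.5 to 244.3 CPM in arsenic ileum (2.05 ± 0.24, edgeR adjusted p = 0.00357), and 19.16 to 22.61 against 58.07 to 80.25 CPM in the cecum (1.71 ± 0.11, 8.41e-07). In the colon it held 16.88 to 57.75 against 47.06 to 111.4 CPM and was not called (1.37 ± 0.40, edgeR adjusted p = 0.166).

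Of the methyl donor cycle, which makes the S-adenosylmethionine that As3mt uses, 1 of 9 genes tested rose and 2 fell in the cecum, and none of 9 in the ileum or of 10 in the colon passed. The 3 of 9 in the cecum stand beside 25.2% of all genes called there. Mat2a, the enzyme that makes S-adenosylmethionine outside the liver, held 1169 to 1399 CPM in control and 515.1 to 815.2 CPM in arsenic cecum, with no overlap (-0.91 ± 0.12, edgeR adjusted p = 0.000486). Its regulatory subunit Mat2b was higher at 0.23 ± 0.06 (edgeR adjusted p = 0.00873), and Ahcyl2, a relative of the enzyme that clears S-adenosylhomocysteine, was lower at -0.28 ± 0.10 (0.049). Mat2a was more abundant in control cecum than in control ileum (3.13 ± 0.33, edgeR adjusted p = 3.89e-06), while As3mt was less abundant in the cecum. In the ileum Mat2a overlapped between diets (128.0 to 159.1 against 109.7 to 157.6 CPM).

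Among 12 thiol reductants, 1 rose in the ileum, 1 rose and 2 fell in the cecum, and none passed in the colon. These counts are near the shares of all genes called, which were 7.3% for ileum, 25.2% for cecum and 0.649% for colon tissue. Txnrd3, a thioredoxin and glutathione reductase, rose in the ileum from 4.594 to 5.71 CPM in controls to 6.493 to 11.29 CPM on arsenic (0.81 ± 0.18, edgeR adjusted p = 0.0258). In the cecum it rose by 0.78 ± 0.14 (edgeR adjusted p = 0.00108). Txnrd1, the cytosolic thioredoxin reductase, fell in the cecum from 378.9 to 418.6 CPM in controls to 225.2 to 270.5 CPM (-0.69 ± 0.06, edgeR adjusted p = 5.22e-06). Glrx, a glutaredoxin, was lower there at -0.20 ± 0.07 (edgeR adjusted p = 0.049). The calls of Glrx and Ahcyl2 were each lost in 8 of 9 fits with 1 cecum library left out. In the ileum Txnrd3 missed the threshold without control 1, 2 or 3, without arsenic 14 (edgeR adjusted p from 0.0538 to 0.0988), and without arsenic 14 and 15 together (0.68, 0.074).

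Of 5 other enzymes described as reducing arsenate in the presence of thiols, Gapdh was lower in the cecum (-0.27 ± 0.07, edgeR adjusted p = 0.00747) and none passed elsewhere. Of the phosphate carriers, aquaporins and export pumps that move arsenic, 1 of 10 tested ones rose in ileum, 1 of 8 in cecum and none of 9 in colon tissue, again near or below the shares of all genes called. Slc20a1, a phosphate carrier, rose in the ileum from 23.8 to 28.49 CPM in controls to 35.37 to 47.37 CPM (0.64 ± 0.10, edgeR adjusted p = 0.0102). Its relative Slc20a2 rose in the cecum from 17.26 to 19.09 CPM in controls to 26.63 to 32.66 CPM (0.73 ± 0.08, edgeR adjusted p = 3.71e-05). Without ileum control 2, Slc20a1 stood at 0.62 (edgeR adjusted p = 0.0522). None of 9 genes of purine salvage and breakdown, the route in which Pnp works, passed in any region. In the averaged test Txnrd3 (0.74 ± 0.09), Slc20a2 (0.48 ± 0.05) and Mt1 (1.72 ± 0.18) were higher and Mat2a (-0.47 ± 0.14, limma adjusted p = 0.0242) lower. The limma adjusted p was 4.75e-06 for Txnrd3, 1.28e-06 for Slc20a2 and 3.46e-07 for Mt1. With the clock score as a covariate Slc20a2 (0.49, limma adjusted p = 0.00922) and Mt1 (1.17, 0.033) passed, and Txnrd3 (0.46, 0.0932) and Mat2a (-0.24, 0.666) did not.

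In the ileum the medians of the sets were -0.10 (methyl donor), 0.13 (thiol), -0.16 (other reducers), -0.02 (transport) and -0.03 (purine), beside -0.0022 over all genes tested, and in the cecum -0.02, -0.12, -0.13, 0.06 and 0.0024 beside 0.02. With the clock score as a covariate none of the 3 ileum and 9 cecum calls in these sets passed. Few genes of any kind did, 0 of 16305 in the ileum and 25 of 15590 in the cecum. These losses are therefore not particular to the sets. With the clock score Mt1 stood at 1.54 in the ileum and 1.53 in the cecum (edgeR adjusted p = 0.256 and 0.0762). With the smooth muscle score the 3 ileum calls were lost as well, Mt1 at 2.02 (edgeR adjusted p = 0.0605), Slc20a1 at 0.70 (0.0678) and Txnrd3 at 0.85 (0.133). That score left 22 of the 16305 ileum genes called. In 1 fit of all 27 libraries Slc20a1 stood at 0.68 in the ileum (edgeR adjusted p = 0.326). With the enterocyte score as a covariate the cecum calls of Mt1, Txnrd1 and Slc20a2 passed and the other 6 did not, beside 576 of all 15590 genes called.

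**Figure D4:**
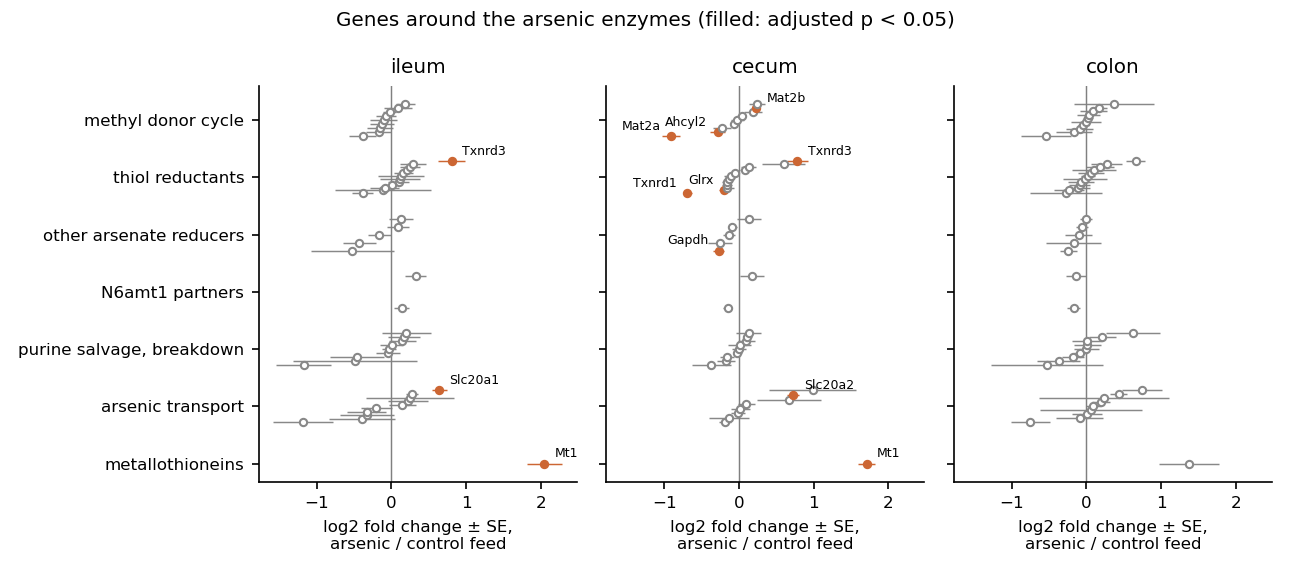
Log2 fold change on arsenic over control feed with its SE for every gene tested in the 7 sets, 1 panel a region (filled and named where the adjusted p passed). Mt1 stands at 2.05 in the ileum and 1.71 in the cecum, while most genes of the other sets lie near 0.

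The genes whose log2 CPM was most like that of an enzyme across the 27 libraries were sought among 13543 genes of at least 1 CPM. These correlations describe libraries that share region, diet and depth. As3mt was most like Dhrs4, a carbonyl reductase (Pearson's r 0.967), Ap2m1, a clathrin adaptor subunit (0.96), and Sult2b1, a sterol sulfotransferase (0.959). Pnp2 was most like Psmb6, a proteasome subunit (0.973), Mpp1 (0.968) and Dnajc7, a co-chaperone (0.965). Gsto1 was most like Emc10 (0.879), Hexa, a lysosomal hexosaminidase subunit (0.832), and Keap1, the repressor of Nrf2 (0.831). N6amt1 had the loosest partners, Samd10 (0.824), Ptpn4 (0.79) and Wdr41 (0.785). Gsto2 averaged 0.785 CPM, under the minimum for this search.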

How the data were processed

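Poly-A RNA of ileum, cecum and colon was sequenced as paired reads of 150 bases, per the labels' protocols. The authors deposited unnormalized counts for 52550 Ensembl genes in 27 libraries, which the submitters' processing notes tie to HISAT2 2.1.0, SAMtools, HTSeq 0.6.0 and DESeq2 1.6.3. Genome build, annotation release and strand setting are not given in the sources used here. The series' design line speaks of rats, while the labels' organism and the identifiers are mouse. Symbols, exon lengths and transcripts came from GENCODE M21 (GRCm38), which named 52403 identifiers; the other 147 held 0.00312 to 0.0059% of a library's counts. Start site sequences came from RefSeq.

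CPM values are counts scaled to library size with TMM over all 27 libraries. Tests used R 4.3.3: edgeR 4.0.16 robust quasi-likelihood within each region for diet and within each diet for region, and limma 3.58.1 voom with duplicateCorrelation for the averaged effect. Genes were kept by filterByExpr (minimum count 10, minimum total 15), p-values were Benjamini-Hochberg adjusted over all genes tested, and calls were made at 0.05. Log2 CPM used a prior count of 2. The procedure was tested on simulated counts with known changes. Of 2-fold changes between diets it recovered 65.3% in the ileum, 82.5% in the cecum, 61% in the colon and 91.8% in the averaged test. For the difference between regions it recovered 55.6%. Changes under 2-fold were not simulated. Alternatives were other scalings and filters, DESeq2 1.42.0, one joint fit, the replicate number as a block, covariate scores and each library left out; The sum of Pnp2 and Gm49342, and the scores as covariates in the averaged test, were chosen after seeing the data.

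The genes and lists were chosen with earlier results of these data known. Every enzyme gene is named in every comparison. Of each set around them, up to 3 called genes with the smallest p are named, and for each enzyme gene of at least 1 CPM the 3 genes of highest Pearson's r, leaving out predicted genes and pseudogenes. One planned marker of the large intestine is not reported here and was left out of that marker list.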

Additional observations from a re-analysis of the deposited data

Results flagged for a closer look

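Gsto2 in ileum control library 1 stood at 0.5653 CPM, while the other 3 control libraries of the ileum held 0.2836, 0.3123 and 0.322 CPM, so that the gap made up 0.86 of the range of the group. This library held 10 Gsto2 reads. Of the 30 groups of an enzyme gene, a region and a diet that were examined for a sample far from the others, this was the only one past Dixon's critical value, and chance alone marks about 1 group in 20.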

How the results depend on the processing

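Over the enzyme genes and the comparisons, 1186 repeated values kept their side of the threshold and their direction, where the test gives one. The test of the difference between regions gives none. Of the others, 24 lost their call, 26 gained one and 55 changed sign, all of the last being values that missed the threshold. The cause of these changes was not tested. Averaged over regions 2 enzyme genes were called, N6amt1 and Pnp2, and 0 with the clock score (added, like the other scores in this test, after seeing the data); both passed in every other setting run. In the ileum 1 enzyme gene was called; 2 were with upper-quartile scaling, DESeq2, all 27 libraries in 1 fit or the enterocyte score as covariate, and 0 with the clock or smooth muscle score, without arsenic 14 and 15 together, with Pnp2 and Gm49342 summed (a setting chosen after seeing the data), and 0 to 1 with 1 library left out. In the cecum 1 was called, 0 with the clock or enterocyte score and 2 with the sum. In the colon 0 were, and 1 with DESeq2. Between ileum and cecum on arsenic feed the count was 3, 4 with upper-quartile scaling or DESeq2, and 3 to 5 with 1 library left out (5 without ileum arsenic 11). Between cecum and colon on arsenic feed it was 1, and 2 with RLE or upper-quartile scaling, no filter on low counts, DESeq2, all 27 libraries in 1 fit or without ileum arsenic 14 and 15, and 1 to 2 with 1 library left out.

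Sign changes of the diet effect by setting were as follows. With the clock score, As3mt stood at -0.01 in ileum and -0.38 in cecum libraries, and Gsto2 at -0.79 in the colon; averaged over regions, As3mt was at -0.03, Gsto1 at -0.19 and Gsto2 at -0.27. With the enterocyte score, Pnp2 in the cecum stood at 0.16, Gsto1 in the colon at 0.15 Ahcyl2 in the cecum at 0.06 and averaged Gsto2 at -0.01. With the smooth muscle score, Pnp2 in the cecum was at 0.05 and Gsto1 in the colon at 0.29. In 1 fit of 27 libraries As3mt in the cecum was at -0.01, with upper-quartile scaling Pnp2 in the cecum at 0.02, and with no filter Gsto2 in the colon at -0.0013. With 1 library left out, As3mt ran from -0.01 to 0.09 in the cecum and -0.07 to 0.08 in the colon, Gsto2 from -0.09 to 0.31 in the cecum, -0.12 to 0.18 in the colon and -0.03 to 0.12 when averaged, Pnp2 from -0.07 to 0.01 in the cecum, and Gsto1 from -0.20 to 0.24 in the colon. N6amt1 from ileum to cecum on control feed (0.01) was at -0.03 with RLE scaling, DESeq2 or a filter of 1 CPM, -0.15 with upper-quartile scaling, -0.01 with no filter, and -0.12 to 0.12 with 1 library left out. From ileum to colon on arsenic feed it was at -0.03 with no filter or without ileum arsenic 14 and 15, -0.0008 with DESeq2, -0.02 in 1 fit of 27 libraries, and -0.15 to 0.21 with 1 library left out. Gsto1 from cecum to colon on control feed ran from -0.24 to 0.16 with 1 library left out.

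The library numbers of the labels recurred across regions, though not every number in every region, and the diets shared none. Deviations of same-numbered libraries from their group means correlated at -0.108 to 0.196 in controls (median 0.075, 4 of 11 pairs over 0.1). On arsenic feed they correlated at -0.018 to 0.248 (median 0.132, 9 of 13). Pairs with different numbers had medians of -0.016 in controls (4 of 45 over 0.1) and -0.03 on arsenic feed (5 of 52). Same-numbered libraries were thus somewhat more alike, but the labels do not state that equal numbers are the same mouse. The main fits of single diets or regions took libraries as independent. The averaged test had number and diet as a random effect (estimated correlation 0.0927), and is given without it below. With the replicate number as a block, 2 enzyme genes in place of 3 were called from ileum to colon on arsenic feed (Gsto2 at 0.88, edgeR adjusted p = 0.0648), and the other region counts were the same. Without the block in the averaged test, Pnp2 stood at -0.29 (limma adjusted p = 0.00173).

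Counts over all genes moved more. In the ileum 1190 genes were called, 2141 with DESeq2, 2889 in the joint fit, 1925 with the enterocyte score, 22 with the smooth muscle score, 0 with the clock score (edgeR, 2229 at an unadjusted p under 0.05), 673 without arsenic 14 and 15, and as few as 121 with 1 library left out (control 2). In the cecum 3933 were, 2021 in the joint fit, 25 with the clock, 576 with the enterocyte and 1973 with the smooth muscle score. In the colon 107 were, 665 with DESeq2, 493 in the joint fit, 0 with the clock (edgeR, 1017 at an unadjusted p under 0.05) and 8 with the smooth muscle score, and 6 to 351 with 1 library left out. Averaged over regions 2896 were, and 375 with the clock score. For the difference between regions 1353 were, 827 with no filter, 551 without ileum control 2 and 899 without ileum arsenic 14 and 15. Upper-quartile scaling turned the higher and lower calls on control feed from 4800 and 4466 to 3663 and 5859 between ileum and cecum, and from 3704 and 4266 to 4458 and 2719 between cecum and colon, as the median of all genes moved from -0.03 to -0.19 and from -0.05 to 0.09. The planned sum of Pnp and Pnp2 was not run, because Pnp had no row. Gsto2, with 3 to 28 reads a library, is limited by depth.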

Other observations

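Genes that carry arsenic across membranes or work beside the enzymes differed widely between regions of control mice. They are named here after their values were seen. Slc34a2, the apical phosphate carrier of the small intestine, stood at 370.8 to 668 CPM in control ileum and 2.899 to 12.94 CPM in control cecum (-6.18 ± 0.54, edgeR adjusted p = 1.46e-06), while Slc20a1 went the other way, from 23.8 to 28.49 CPM to 495.8 to 651 CPM (4.46 ± 0.69, edgeR adjusted p = 0.000199). Abcc2, a pump that exports glutathione conjugates, stood at 251 to 337.7 CPM in the ileum and 1.986 to 4.725 CPM in the cecum (-6.75 ± 0.33, edgeR adjusted p = 4.03e-09). Aqp7, an aquaglyceroporin that can pass arsenite, held 12.4 to 23.52 CPM against 0.4441 to 1.41 CPM (-4.65 ± 0.57, edgeR adjusted p = 1.58e-05).

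Of 9 genes of purine salvage and breakdown, 2 were higher and 4 lower in control cecum than in control ileum, where 54.9% of all genes were called. Ada and Xdh, among the lower ones, work on either side of Pnp. Ada, which makes the inosine that Pnp splits, held 177.8 to 416.6 CPM in control ileum and 10.09 to 13.84 CPM in control cecum (-4.81 ± 0.34, edgeR adjusted p = 1.24e-07), and Xdh, which oxidizes the resulting hypoxanthine, 325.9 to 490.8 against 91.81 to 120.8 CPM (0.25 times the ileum level, edgeR adjusted p = 1.71e-06). In the methyl donor set 6 of 10 genes were higher in the cecum and 1 lower, and among the thiol reductants 4 of 12 were higher and 2 lower. Examples of the higher ones were Ahcy at 1.91 ± 0.16 (edgeR adjusted p = 2.00e-07) and Gclc, the rate-limiting enzyme of glutathione synthesis, at 2.18 ± 0.17 (edgeR adjusted p = 1.03e-07). The differences of the 8 genes named here with values passed the threshold in the same direction in each of the 21 other settings run.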
